A study of Mus musculus with 8 samples.

Results

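Levels of Id and Hey differentiation repressors, of Hes6 and of 3 genes tied to their control were followed in Neuro2A (N2A) cells. This mouse neuroblastoma line extends neurites when its type 1 cannabinoid receptor (CB1R) is activated. The genes were taken by symbol from a list of 10, ID1, ID2, ID3, ID4, HES1, HES6, HEY1, NOTCH1, SMAD6 and SMAD7, out of 16980 genes in the whole table. The table listed 9 of them at all 4 time points. Hes1 was not analysed here. Of the 9, 8 had a mean of at least 1 FPKM, a fragment count scaled by transcript length and library size, over the 8 libraries and were among the 11306 genes tested. Notch1 did not reach that level.

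The cells were kept in serum-free medium for 16 h and then received either 2 µM HU210, a potent CB1R agonist, or drug-free DMSO, its solvent. RNA was sequenced at 4 time points, after 2, 4, 6 and 8 hours of exposure. All groups therefore shared the line and the preceding serum withdrawal, and no untreated library at 0 h was analysed here. Each treatment and time point was represented by 1 library, pooled from independent experiments, so a difference at a single time point had no replicate check. The model is a single tumour-derived line.

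Id proteins (inhibitors of DNA binding) have a helix-loop-helix domain but no DNA-binding basic region. They pair with E proteins and so keep neurogenic basic helix-loop-helix (bHLH) factors from binding their E box targets. Id genes are known targets of bone morphogenetic protein (BMP) signaling through Smad transcription factors. Hes and Hey proteins are bHLH repressors, many of them induced by Notch receptors, and Hes proteins act with corepressors of the Tle family. The genes on the list do not all repress differentiation. Hes6 is known to oppose Hes1, Notch1 is a receptor, and Smad6 and Smad7 are inhibitory Smads that are induced by BMP and transforming growth factor-β (TGF-β) signals and dampen them.

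RefSeq promoter windows of 300 bases, from 250 bases before to 50 bases after the start site, were matched by symbol for 6 of the 10 genes, namely Id2, Id3, Id4, Hes6, Notch1 and Smad6. Id1, Hes1, Hey1 and Smad7 had no entry. The windows of Id2 and Id3, the genes with the lowest late-to-early estimates in the list, and of Id4, which had a 1.5-fold difference at 6 h, are given 5′ to 3′ on the gene's own strand in build GRCm38.p6. They lie at chr12:25096043-25096342 (minus strand), chr4:136143572-136143871 (plus strand) and chr13:48260866-48261165 (plus strand), in that order. Capitals mark the E box (CANNTG) and the core of a BMP response element (GGCGCC), searched on both strands.
Id2: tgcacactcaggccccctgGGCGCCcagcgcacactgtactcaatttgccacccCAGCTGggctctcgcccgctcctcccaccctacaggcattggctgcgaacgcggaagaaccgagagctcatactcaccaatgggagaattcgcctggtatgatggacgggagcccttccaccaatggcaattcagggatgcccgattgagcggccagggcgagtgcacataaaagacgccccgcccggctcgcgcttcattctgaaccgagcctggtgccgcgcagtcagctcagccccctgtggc
Id3: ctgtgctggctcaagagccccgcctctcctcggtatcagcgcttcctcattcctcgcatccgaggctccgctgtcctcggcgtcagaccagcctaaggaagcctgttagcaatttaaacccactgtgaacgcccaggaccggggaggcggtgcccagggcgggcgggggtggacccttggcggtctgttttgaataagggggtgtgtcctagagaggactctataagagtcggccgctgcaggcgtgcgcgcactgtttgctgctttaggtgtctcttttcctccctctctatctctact
Id4: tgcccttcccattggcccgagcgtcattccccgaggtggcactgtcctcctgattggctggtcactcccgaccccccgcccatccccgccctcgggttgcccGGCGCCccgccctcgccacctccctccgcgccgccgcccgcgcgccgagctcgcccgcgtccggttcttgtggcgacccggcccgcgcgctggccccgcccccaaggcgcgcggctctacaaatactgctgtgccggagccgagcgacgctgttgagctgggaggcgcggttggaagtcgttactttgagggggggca

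The Id2 window held 1 E box, at base -196 from the start site, and 1 GGCGCC, at -231. The Id4 window held GGCGCC at -148 and no E box. The Id3 window held neither motif, and none of the 6 other motifs searched. Those 6 motifs were the N box bound by Hes proteins (CACNAG), the RBPJ site of Notch signaling (TGGGAA), the cyclic AMP response element (TGACGTCA), the Egr site (GCGGGGGCG), and the CCAAT and TATAAA boxes. Of these the Id4 window had TGGGAA at -245, 1 N box at -82 and 2 CCAAT boxes, and the Id2 window had 1 N box and 3 CCAAT boxes. An E box was present in 72.3% of all 32851 RefSeq promoter windows of this length, GGCGCC in 11.9%, TGGGAA in 25.6%, the N box in 42.5% and CCAAT in 37.4%. GC content was 63.3% for the Id2 window, 60% for Id3 and 73.3% for Id4, compared with a median of 52.7% for all windows. These matches describe letters and not bound sites.

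The labelled cell type was checked first. Of 17 neuroblastoma and sympathetic markers, 15 were listed and 14 were tested, with a summed FPKM of 644 to 779 over the libraries. The mean of Hand2, a sympathetic bHLH factor, was 84.8 FPKM. Other markers of that list were low. Th, Dbh and Ddc averaged 2.00, 1.14 and 0.990 FPKM, below the glial marker Mbp (4.33 FPKM). Summed levels were far lower for glial markers (4 of 8 listed, 5.72 to 6.98 FPKM), fibroblast and endothelial markers (4 of 8 listed, 2.33 to 2.83 FPKM) and blood markers (1 of 6 listed, 0.219 to 0.443 FPKM). The libraries had median levels of 12.0 to 13.1 FPKM over the tested genes, and the files hold no read counts, so the number of reads behind a value was not computed. The HU210 and DMSO libraries at 4 h differed most of all 28 library pairs, with an SD over genes of 0.400 for the log2 difference, compared with 0.206 to 0.230 for the pairs at the other time points. The 4 h log2 change also followed the GC content of the genes (Spearman rho 0.532 across 10585 genes, which are not independent replicates), and the 6 h change ran the other way (rho -0.298). Fewer cells of a type and less RNA per cell cannot be told apart in such bulk libraries.

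Id1 had the highest mean level of the 9 genes, and its level differed between treatments mainly at 4 h. In time order it measured 21.4, 23.9, 16.4 and 16.8 FPKM with HU210, and 21.2, 12.5, 17.6 and 13.5 FPKM with DMSO. The 4 h pair thus held both the highest and the lowest of the 8 libraries, whereas the 2 h pair was nearly level. Id1 is a single-exon transcript in its longest form, on chromosome 2 at 152561987 to 152563146 of mm9 (plus strand).

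Changes are given as log2 of (FPKM with HU210 + 1) over (FPKM with DMSO + 1), a scale that understates the change of low genes. For Id1 they came, in time order, to 0.01, 0.88, -0.10 and 0.29. The 4 h value, 1.84-fold, lay at percentile 99.3 of all tested genes. At 4 h, 2.77% of tested genes were at least 1.5-fold higher with HU210 and 8.69% at least 1.5-fold lower, so Id1 was in the smaller class. With the dependence on GC content and transcript length taken out by loess, the 4 h change of Id1 was 0.78. With all 4 DMSO libraries averaged as the reference, the HU210 library at 4 h stood at 0.56, below 1.5-fold. Whether the 4 h library pair itself accounts for the difference was not tested.

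**Figure D1:**
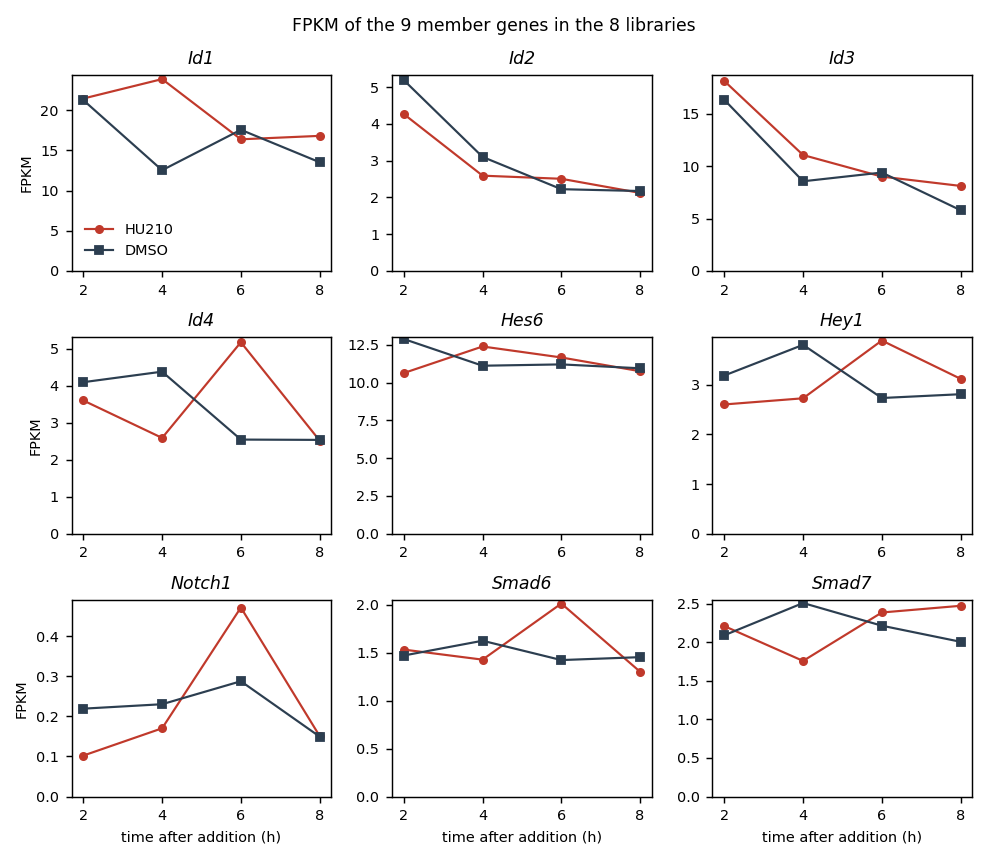
FPKM (vertical axis, from 0, a separate scale per gene) against time after addition in hours for the 9 listed genes. Each point is 1 library, red circles HU210 and dark squares DMSO, with no error bars because each has 1 library. Id2 and Id3 are highest at 2 h in both treatments, Id1 separates at 4 h (23.9 and 12.5 FPKM), and Id4 crosses between 4 h and 6 h.

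Id3 and Id2 differed by time point more than by treatment. In time order Id3 measured 18.1, 11.1, 9.0 and 8.11 FPKM with HU210. With DMSO it measured 16.3, 8.55, 9.38 and 5.79 FPKM. Both 2 h libraries stood above the other 6, and the 8 h level was 2.23-fold lower than the 2 h level with HU210 and 2.82-fold lower with DMSO. Id3 lies on chromosome 4 at 135699412 to 135701670 of mm9 (plus strand).

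Id2, an Id gene expressed at a lower level in these cells, followed a like course. It measured 4.27, 2.59, 2.51 and 2.12 FPKM with HU210 from the first to the last time point, and 5.19, 3.10, 2.23 and 2.18 FPKM with DMSO. From 2 h to 8 h the level was 2.01-fold lower with HU210 and 2.39-fold lower with DMSO. All 4 libraries at 6 h and 8 h (2.12 to 2.51 FPKM) lay below all 4 at 2 h and 4 h (2.59 to 5.19 FPKM), the highest late and lowest early library being close. Id2 was the 1 gene of the 8 with such a separation downward, and 2.2% of all tested genes had it. The upward separation was seen in none of the 8, against 3.24% of all tested genes. Id2 lies on chromosome 12 at 25778666 to 25780957 of mm9 (minus strand).

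The late (6 h and 8 h) and early (2 h and 4 h) libraries were compared with limma over all tested genes, with treatment and its interaction in the fit. The late-minus-early log2 difference was -0.64 for Id3 (SE 0.23, 95% interval -1.18 to -0.11, unadjusted p = 0.024, adjusted p = 0.49) and -0.52 for Id2 (SE 0.16, 95% interval -0.90 to -0.15, unadjusted p = 0.012, adjusted p = 0.49). Neither passed the adjusted threshold of 0.05, and no gene of the 11306 did (0%), with 568 higher and 429 lower at an unadjusted p below 0.05. By size the estimates ranked 8th (Id3) and 17th (Id2) from the lowest of all tested genes. Id1 had -0.25 (SE 0.16, adjusted p = 0.67), and the other 5 genes lay between -0.18 (Id4) and 0.06 (Smad7). Without the 2 h libraries the estimates were -0.26 for Id3 and -0.24 for Id2, so each difference was over 2 times as large with the 2 h libraries.

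A straight line over the 4 time points, chosen after seeing the data, gave Id3 a log2 slope of -0.37 per 2 h (SE 0.060, unadjusted p = 2e-04, adjusted p = 0.2 by limma). For Id2 it was -0.28 (SE 0.052, unadjusted p = 0.00057, adjusted p = 0.2). The slopes were close in the treatments, -0.35 with HU210 and -0.39 with DMSO for Id3, and -0.23 and -0.32 for Id2. No gene passed, with 1318 of 11306 (11.7%) at an unadjusted p below 0.05. A limma F test for any difference among the 4 time points was also added after seeing the data. It gave Id3 an unadjusted p = 0.00075 (adjusted p = 0.63) and Id2 an unadjusted p = 0.0018 (adjusted p = 0.65), and again no gene passed. The straight line and the late-against-early fit counted the HU210 and DMSO libraries of a time point as independent. Ranked from the largest SD of the log2 difference, the pairs at 2 h, 6 h and 8 h came 27th, 26th and 28th of 28. The SE and p-values of both fits may therefore be too small. Time after serum withdrawal and time after addition cannot be told apart here. It is not stated whether the time points were normalized together. With each library centred on its median, the late-minus-early estimates were -0.66 for Id3 and -0.54 for Id2.

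**Figure D2:**
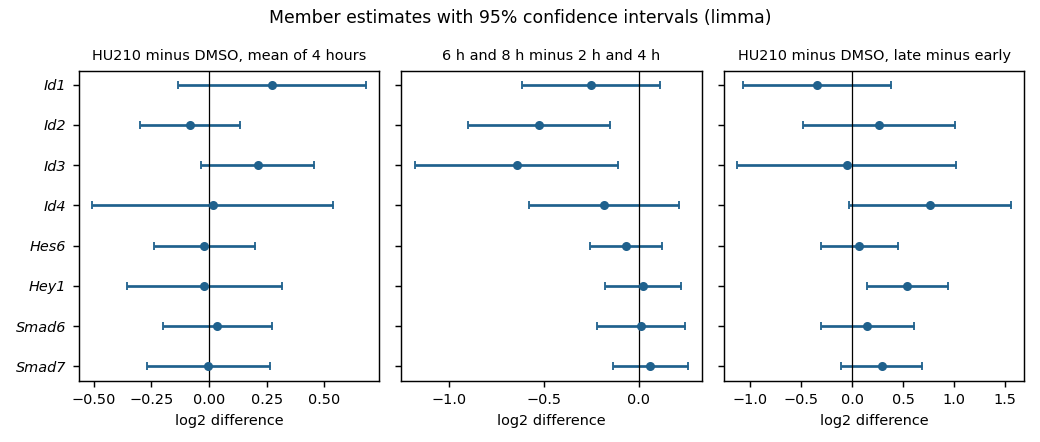
Log2 differences from limma (horizontal axis) with 95% confidence intervals for the 8 tested genes, for HU210 minus DMSO over the 4 time points (left), late minus early libraries (middle) and the HU210 effect late minus early (right). The intervals of Id2 and Id3 in the middle and of Hey1 on the right do not reach 0, and none passed after adjustment over all genes. On the right the median of all tested genes was 0.12 rather than 0.

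HU210 and DMSO were next compared over the 4 time points, with time as a term in limma. The estimate was 0.27 for Id1 (SE 0.17, 95% interval -0.13 to 0.68, adjusted p = 1, higher at 3 of 4 time points) and 0.21 for Id3 (SE 0.10, 95% interval -0.03 to 0.46, unadjusted p = 0.079, adjusted p = 1, higher at 3 of 4). The Id1 estimate was 0.07 when the 4 h pair was left out. The other 6 genes had estimates between -0.08 (Id2) and 0.04 (Smad6). No gene of the 11306 was called (0%), with 70 higher and 78 lower with HU210 at an unadjusted p below 0.05. The interval of Id2 ran from -0.30 to 0.14 and that of Hes6 from -0.24 to 0.20.

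Id4, a further Id gene, lay below its DMSO level at 4 h of HU210 and above it at 6 h. In time order it measured 3.6, 2.59, 5.18 and 2.52 FPKM with HU210, and with DMSO 4.10, 4.38, 2.55 and 2.54 FPKM. The HU210 library at 6 h was the highest of the 8, and the DMSO library at 4 h came next. Its log2 changes, in the same order, were -0.15, -0.58, 0.80 and -0.01. The 6 h value, 1.74-fold, lay at percentile 99.5, where 1.73% of tested genes were at least 1.5-fold higher and 0.637% at least 1.5-fold lower. With all 4 DMSO libraries averaged as the reference, the HU210 library at 6 h stood at 0.52, below 1.5-fold. The 4 h value was 0.667-fold, just inside the 1.5-fold boundary, and lay at percentile 8.70. Id4 lies on chromosome 13 at 48356796 to 48359405 of mm9 (plus strand).

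Id1 at 4 h and Id4 at 6 h were the 2 values past 1.5-fold among the 32 pairs of gene and time point, both higher with HU210. Of tested genes, 2.77% at 4 h and 1.73% at 6 h were at least 1.5-fold higher, and 8.69% and 0.637% lower. With a pseudocount of 0.1, Id4 at 4 h was also past 1.5-fold, lower with HU210 (-0.74). No member was past 1.5-fold at 2 h, where 0.504% of tested genes were higher and 1.45% lower, or at 8 h, where 1.17% were higher and 0.557% lower. At 1.3-fold the values past the boundary were Id1 and Id4 at 4 h, Id4 and Hey1 at 6 h, and Id3 at 8 h (log2 change 0.42, but -0.19 with all 4 DMSO libraries averaged as the reference). That made 5 of 32 values (15.6%), compared with 12% over all tested genes and time points. Of all tested genes, the share at least 1.3-fold higher was 1.49%, 8.97%, 6.39% and 4.38% in time order, and the share at least 1.3-fold lower was 3.91%, 19.9%, 1.72% and 1.44%. The median log2 change of the 8 genes was -0.07, -0.15, 0.10 and 0.05 in time order, compared with -0.05, -0.08, 0.06 and 0.04 for all tested genes.

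**Figure D3:**
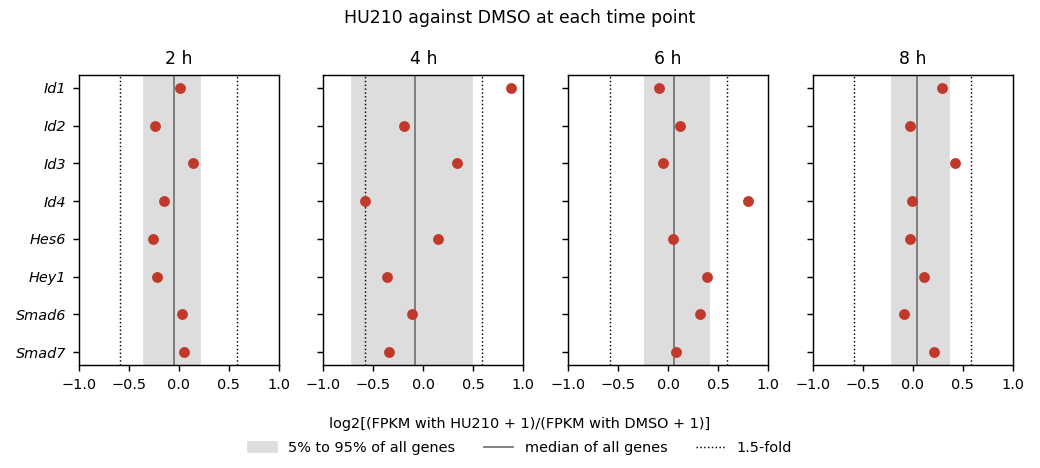
Log2 change with HU210 against DMSO (horizontal axis) for the 8 tested genes at each time point, 1 library per treatment. The grey band spans 5% to 95% of all tested genes, the grey line is their median and dotted lines mark 1.5-fold. Id1 at 4 h (0.88) and Id4 at 6 h (0.80) lie beyond both.

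Hey1, a Notch-induced repressor, had the same signs as Id4 at 4 h and 6 h, over a smaller range. It measured 2.60, 2.73, 3.89 and 3.12 FPKM with HU210 at the 4 time points, and 3.18, 3.80, 2.73 and 2.81 FPKM with DMSO. The highest library was again HU210 at 6 h and the next DMSO at 4 h. The log2 change was -0.22, -0.37, 0.39 and 0.11, negative at both early and positive at both late time points. With all 4 DMSO libraries averaged as the reference, the values were -0.19, -0.14, 0.25 and 0.003, so the 8 h value was close to level.

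The interaction term, the late HU210 effect minus the early one, was 0.54 for Hey1 (SE 0.17, 95% interval 0.14 to 0.94, unadjusted p = 0.014, adjusted p = 0.22 by limma) and 0.76 for Id4 (SE 0.34, 95% interval -0.03 to 1.55, adjusted p = 0.33). It was -0.35 for Id1 (SE 0.31, adjusted p = 0.61), and 0.09 without the 4 h pair. No gene of the 11306 passed (0%), with 1583 positive and 203 negative at an unadjusted p below 0.05. The median of all genes was 0.12 rather than 0, and by size Hey1 lay at percentile 90.05 and Id4 at 95.7. With each library centred the estimates were 0.40 for Hey1 (adjusted p = 0.384 by limma) and 0.62 for Id4 (adjusted p = 0.444). Without the 6 h pair the Id4 estimate was 0.36.

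Among the 8 genes, 5 (Id2, Id4, Hey1, Smad6 and Smad7) had a lower value at 4 h and a higher one at 6 h with HU210, a pattern shown by 47.9% of all tested genes. With each library centred on its median, the Smad7 value at 6 h was -0.01. The Id2 value at 4 h was 0.01 with the GC content and length trend removed. At 6 h it was -0.20 with all 4 DMSO libraries averaged as the reference. Hes6 joined the pattern with the GC content and length trend removed (-0.04 and 0.04). Of the 11306 genes, 506 had the pattern by at least 1.3-fold at both time points, and Id4 was the 1 gene of the 8 among them. Id1 and Id3 had the opposite signs at these times (0.88 and -0.10 for Id1, 0.34 and -0.05 for Id3).

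Hes6 was nearly level. It ranged from 10.6 FPKM (HU210, 2 h) to 12.9 FPKM (DMSO, 2 h), a 1.21-fold range over the 8 libraries, the narrowest of the 9 genes. Its log2 change was -0.26, 0.14, 0.05 and -0.02 at the 4 time points, and the 4 h sign turned negative (-0.04) once the dependence on GC content and length was taken out.

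The inhibitory Smads were low. Smad7, which blocks both BMP and TGF-β receptors, ranged from 1.76 FPKM (HU210, 4 h) to 2.51 FPKM (DMSO, 4 h), and Smad6, which acts mainly on the BMP branch, from 1.3 FPKM (HU210, 8 h) to 2.01 FPKM (HU210, 6 h). Their log2 changes lay between -0.35 and 0.31. The late-minus-early estimates of Smad6 and Smad7, were 0.01 and 0.06, and their difference from those of Id2 and Id3 was not tested.

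Notch1 was the lowest of the 9, with 19.1% of the 15888 genes listed at all time points having a lower mean. It measured 0.102, 0.170, 0.472 and 0.151 FPKM with HU210 and 0.219, 0.230, 0.288 and 0.150 FPKM with DMSO. It was not tested. In order of mean level, which FPKM scales by length, the genes were Id1 (17.9 FPKM), Hes6 (11.5 FPKM), Id3 (10.8 FPKM), Id4 (3.43 FPKM), Hey1 (3.11 FPKM), Id2 (3.02 FPKM), Smad7 (2.20 FPKM), Smad6 (1.53 FPKM) and Notch1 (0.223 FPKM). The ranges over libraries of Id1, Hes6 and Id3 overlapped, as did those of Id4, Hey1 and Id2. Smad7 overlapped Id2 above it and Smad6 below it. Compared within each library, Id1 lay above Hes6 and Smad7 above Smad6 every time. The order of the other overlapping neighbours changed between libraries and is not sharp. Notch1 lay below all others in every library. Id1, at percentile 61.1, was the only member above the median of the tested genes.

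The surrounding pathways were read from 10 gene lists, in which 83 genes were listed and 65 tested. Of those 65, 7 (10.8%) were past 1.5-fold at any time point, compared with 14.1% of all tested genes, and all 7 were past it at 4 h. No gene of any list was called by limma in the 3 comparisons. Lower with HU210 at 4 h were the BMP receptor Bmpr1a (21.4 against 40.0 FPKM, log2 change -0.87), its effector Smad1 (6.76 against 12.4 FPKM, -0.79), the Notch ligand ubiquitin ligase Mib1 (-0.87), the γ-secretase subunit Aph1b (-0.60) and Dtx4 (-0.61). Higher were the corepressor Tle2 (0.74) and the ligand Tgfb1 (0.62). Bmpr1a and Smad1, which act upstream of Id genes in BMP signaling, had their lowest HU210-to-DMSO values at 4 h. At that time Id1 and Id3 were higher with HU210 (0.88 and 0.34), and Id2 and Id4 were lower (-0.19 and -0.58). Of 7 BMP ligands and receptors tested, 2 were higher at 4 h, and of 6 Smad transducers 0 were. The share over all tested genes was 40.9%. These values come from the same 4 h library pair, and a link between them was not tested.

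Among Notch receptors and ligands, 4 of 9 listed genes were tested, with means from 2.52 FPKM for Dlk2 to 38.6 FPKM for Dlk1, a noncanonical ligand. Notch2 averaged 4.91 FPKM, well above Notch1, and its levels ranged from 4.11 to 5.49 FPKM. Of the other Hes and Hey genes, Hey2 averaged 1.31 FPKM and Hes5, a further Notch target, 0.847 FPKM. The partners of Id proteins were well expressed. The E proteins Tcf4, Tcf3 and Tcf12 averaged 72.6, 24.4 and 19.8 FPKM, none was past 1.5-fold, and the late-minus-early log2 difference of Tcf4 was 0.36 (SE 0.079, unadjusted p = 0.0018, adjusted p = 0.4). Those of Tcf12 and Tcf3 were 0.11 (adjusted p = 0.75) and 0.02 (adjusted p = 0.96).

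**Figure D4:**
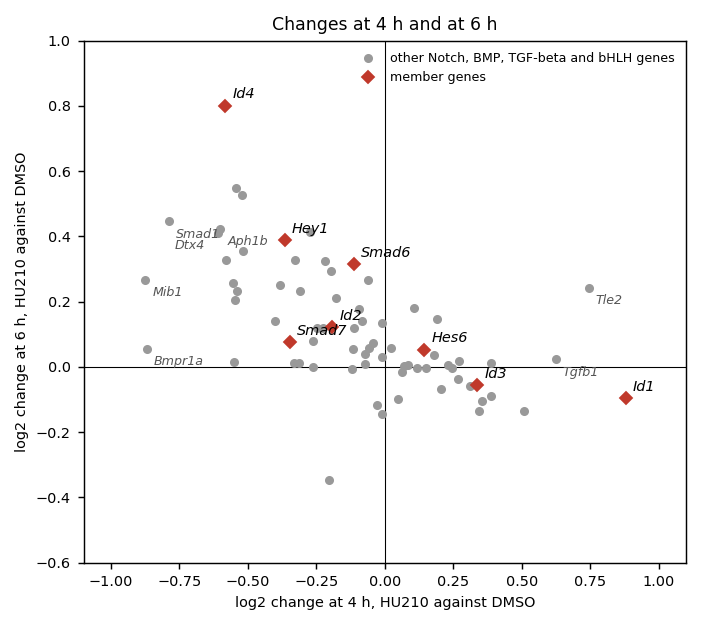
Log2 change with HU210 against DMSO at 4 h (horizontal axis) and at 6 h (vertical axis). Red diamonds are the 8 tested genes of the list and grey points 65 other Notch, BMP, TGF-β and bHLH genes, with those past 1.5-fold named; Id4 lies upper left and Id1 far right.

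The genes whose levels ran most like the better expressed members were found by Pearson's r of log2 levels over the 8 libraries, among 8026 genes with at least 5 FPKM in every library. They included Pusl1 (r = 0.966) and Cbx7 (0.965) for Id3, then 2310011J03Rik (0.987), Wdr46 (0.983) and Prelid1 (0.980) for Id1, and Lsm4 (0.947), Ubac2 (0.944) and Cluh (0.942) for Hes6. With 8 libraries that share depth and base composition effects, and many candidates, high values of r are given as a description only.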

How the data were processed

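Per the labels, N2A RNA was isolated with TRIzol, poly(A)-selected and sequenced. The submitters' processing notes name TopHat2 2.0.8, Bowtie2 2.1.0, SAMtools 0.1.7, Cufflinks and mouse build mm9. Per the study's methods, alignment used Ensembl gene annotation, and Cufflinks was set to upper-quartile normalization, multi-read correction and fragment bias correction. The deposited values are FPKM, to which the authors added 1; the 1 was subtracted here. Further deposited columns hold the authors' fold changes, p-values, q-values and significance calls and were not used.

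FPKM are not counts, so no count model was fitted. Differences were taken on log2(FPKM + 1). Genes with a mean of at least 1 FPKM over the 8 libraries were tested with limma 3.58.1 (R 4.3.3) with a mean-variance trend and Benjamini-Hochberg adjustment over all 11306 genes, called at 0.05. Fits used time point and treatment, or phase (early, late), treatment and their interaction. Libraries at different time points served as replicates of a phase or treatment, so p-values include variation over time. In the phase and straight-line fits the HU210 and DMSO libraries of a time point counted as independent, and what they share was not modelled. A 1.5-fold difference at single time points carried no test. The scripts were tested on simulated data. Gene positions are from GENCODE vM1 on mm9; promoter windows are from RefSeq on GRCm38.p6. The genes named were the list members, the pathway genes past 1.5-fold, the most abundant genes of each list and the 3 genes most similar to each member at 5 FPKM or more, of which 1 is not reported here; Tcf12, Notch2, Dlk2, Hey2 and Hes5 were added for context after their values were seen. The members and lists were chosen with earlier results of these data known. Alternatives covered the pseudocount, library centring, the filter, the reference library, GC content and length (loess span 0.3), and leaving out time points.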

Additional observations from a re-analysis of the deposited data

How the results depend on the processing

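The comparison of HU210 with DMSO over the time points pairs the libraries of each hour through its time term, and without that term the count of genes called was again 0. The labels give no replicate numbers to pair by. The count of 2 values past 1.5-fold was 5 at a 1.3-fold boundary (15.6% of the 32 values, compared with 12% over all tested genes) and 1 with the mean of the 4 DMSO libraries as reference (Id3 at 2 h, log2 change 0.88). It was 2 with centred libraries, no filter or the GC content and length trend removed. With a pseudocount of 0.1 it was 3, the added value being Id4 at 4 h, lower with HU210 (log2 change -0.74). For the late-against-early comparison and for the HU210 effect late against early, the count of genes called, 0, was 7 in each without the filter on low values, and ranged from 0 to 1 when a time point was left out, the 1 arising without 6 h. No member was called in any of the 192 member estimates under these alternatives, the lowest adjusted p being 0.129 (limma). Limits are the single library per treatment and time point, the GC trend of the 4 h pair and a normalization across time points that is not stated. The number of reads behind the low values of Smad6, Smad7 and Notch1 was not computed.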
